A study of Mus musculus with 6 samples.

Results

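Small heat shock protein genes were followed in the colon of DSS-treated Gm31629-/- and WT mice, to see whether Hspb1 moved together with the members of the family that are typical of muscle. The 6 genes were Hspb1, Hspb2, Hspb6, Hspb7, Hspb8 and Cryab, picked by symbol, and all 6 were found among the 27546 genes of the deposited table. Their proposal followed earlier results on the same genotype contrast, so their differences between genotypes are given as a description, with no test. RNA-Seq had been run on colon tissue from 3 Gm31629-/- mice, which lack a long noncoding RNA gene, and from 3 WT littermates. All 6 were 8-week-old C57BL/6 mice (C57BL/6J in the methods) that drank 3% DSS, a polymer that injures the colonic epithelium, for 7 days and were killed on day 8. No untreated mice were included, so both groups carry the injury. The knockout is constitutive rather than limited to a cell type, and no row of the table matched the symbol Gm31629, so the genotype labels were not checked by the targeted gene.

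Small heat shock proteins are chaperones that share an alpha-crystallin domain, form oligomers and hold unfolding proteins in a soluble state without using ATP, until Hsp70-type chaperones refold them or they are degraded. Hspb1 (Hsp25 in mice) is made in many cell types and binds actin and intermediate filaments. Hspb2, Hspb6, Hspb7 and Cryab have known roles in cardiac, skeletal or smooth muscle, where they protect the contractile cytoskeleton. Cryab is not confined to muscle. Hspb8 works with the cochaperone Bag3, which delivers damaged filament proteins to autophagy. Hspb1 and Cryab are also classical targets of the heat shock factor Hsf1, which binds inverted repeats of GAA.

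Hspb1 (ENSMUSG00000004951) lies at chr5:135887919-135889563 on the plus strand of GRCm38, in 2 exons by the GENCODE M21 annotation. Hspb8 (ENSMUSG00000041548) lies on the same chromosome at chr5:116408491-116422864, minus strand. Hspb6 (ENSMUSG00000036854) lies at chr7:30552178-30555443 and Hspb7 (ENSMUSG00000006221) at chr4:141420779-141425311, both on the plus strand. Hspb2 (ENSMUSG00000038086, chr9:50751078-50752354, minus strand) and Cryab (ENSMUSG00000032060, chr9:50751325-50756636, plus strand) are neighbors on opposite strands and share 252 exon bases, which make up 30.2% of the exon bases of Hspb2 and 17.0% of those of Cryab. The library kit was not stated to keep strand, and without strand the reads of these 252 bases cannot be told apart. Of the exon bases of Hspb6, 8.79% are shared with Lin37, Proser3 and Gm38670. Hspb1 has the near copies Gm9817, identical over 99.8% of 493 aligned bases, and Hsp25-ps1, identical over 99.4% of 630. Gm9817 stayed at or below 0.0841 FPKM in every library, and no row matched the symbol Hsp25-ps1.

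The sequence around the start sites is shown because Hspb1, Hspb6 and Hspb8 share an 8-base match to the heat shock element core that Hspb7 lacks in its window. RefSeq promoter windows (GRCm38.p6, 250 bases before to 50 bases after the start) were matched for 4 of the 6 genes, with none for Hspb2 and Cryab, and Hspb6 has 2 windows. Capitals mark the core GAANNTTC, and each sequence runs 5′ to 3′ on the strand of its gene.

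Hspb1, chr5:135887669-135887918, plus strand: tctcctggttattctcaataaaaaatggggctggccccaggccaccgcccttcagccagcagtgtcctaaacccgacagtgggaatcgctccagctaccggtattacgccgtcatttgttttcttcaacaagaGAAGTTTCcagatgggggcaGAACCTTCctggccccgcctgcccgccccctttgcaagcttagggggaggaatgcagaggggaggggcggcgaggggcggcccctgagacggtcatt

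Hspb6, chr7:30553170-30553199, plus strand: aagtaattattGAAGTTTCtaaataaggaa

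Hspb8, chr5:116422844-116422873, minus strand: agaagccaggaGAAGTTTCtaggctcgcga

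Hspb7, chr4:141420529-141420778, plus strand, no match: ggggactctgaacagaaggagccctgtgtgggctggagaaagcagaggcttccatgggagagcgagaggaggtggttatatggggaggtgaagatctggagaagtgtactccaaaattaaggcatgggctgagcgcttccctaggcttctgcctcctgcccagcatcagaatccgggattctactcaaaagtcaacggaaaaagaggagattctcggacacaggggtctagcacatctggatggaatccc

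The core began at positions -117 and -97 from the start site of Hspb1, at -120 for Hspb6 and at 3 for Hspb8. Both strands were searched, and GAANNTTC was present in 7.86% of 32851 promoter windows and the opposite arrangement TTCNNGAA in 8.52%. The letters GAAGTTTC, common to Hspb1, Hspb6 and Hspb8 and picked out after the matches were seen, occurred in 1.21% of the windows. The CArG box, the site of serum response factor before many smooth muscle genes, was in none of the 4 genes' windows and in 1.63% of all windows. A TATAAA was found in 1 of the 4 genes, Hspb6, and in 13.6% of all windows. These matches describe the sequence and were not tested for binding.

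The libraries were of like depth, with 18370400 to 18454500 mapped fragments in Gm31629-/- mice and 18006000 to 18795100 in WT mice, as recovered from the FPKM steps (FPKM is fragments per kilobase of exon, scaled to library depth, so levels of different genes are per length). Genes above 0 numbered 22456 to 23600 in Gm31629-/- mice and 19938 to 20118 in WT mice. Gm31629-/- mouse 1 stood apart from the other 5 mice. It had 0.00606 FPKM of Xist against 8.35 to 13.8 in the others, and only it had fragments of the Y-linked genes Ddx3y, Eif2s3y, Kdm5d and Uty. The methods describe male mice, and by these genes only mouse 1 matched that. The other 5, with every WT mouse among them, had the female pattern. Member values without Gm31629-/- mouse 1 are therefore given too.

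Hspb1 had by far the highest FPKM of the family in Gm31629-/- mice. In WT mice it was 1.76 to 3.28 times Hspb6, the next by mean. Hspb1 was more abundant in each Gm31629-/- mouse than in any WT mouse. Its FPKM was 248, 324 and 166 in Gm31629-/- mice 1 to 3 and 2.15, 2.85 and 2.53 in WT mice 1 to 3. These values stood for 4709, 6169 and 3137 fragments against 41, 53 and 49. The lowest Gm31629-/- mouse lay 58.0-fold above the highest WT mouse, and mouse 2 was the highest of its group. The means were 246 ± 79.3 and 2.51 ± 0.353 FPKM (SD, n = 3 each), a difference of 6.09 (SE 0.29) on the log2(FPKM + 1) scale, which ranked 9 among the 14657 genes whose FPKM averaged 0.5 or more over the 6 mice, the minimum for testing. On a log2 scale with no pseudocount the difference was 6.57 (SE 0.31). In bulk tissue, fewer cells of a type and less RNA per cell cannot be told apart.

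Hspb8, the partner of Bag3, came next. It had 82.7, 71.6 and 30.0 FPKM in Gm31629-/- mice and 0.139, 0.456 and 0.791 FPKM in WT mice, the latter from 5, 16 and 29 fragments. Gm31629-/- mouse 3 had less than either of its group mates but was still 37.9-fold above the highest WT mouse. Its ratio of group means was 133, and it was 207 without WT mouse 3, so its size depends on that mouse. The means were 61.5 ± 27.8 and 0.462 ± 0.326 FPKM (SD, n = 3 each), a log2(FPKM + 1) difference of 5.32 (SE 0.49).

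Hspb7, a muscle member that guards filamins in heart and skeletal muscle, had 18.9, 10.7 and 5.90 FPKM in Gm31629-/- mice. WT mice had 0.0390, 0.281 and 0.135 FPKM, or 2, 14 and 7 fragments, so the WT level rests on few reads. Mouse 1 had 3.20 times the level of mouse 3 among Gm31629-/- mice, the widest spread of the 5 members seen in all of them. The log2(FPKM + 1) difference was 3.35 (SE 0.45), and 6.54 (SE 0.96) with no pseudocount.

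Cryab, the alphaB-crystallin that chaperones desmin, had 14.9, 18.9 and 12.8 FPKM in Gm31629-/- mice and 0.365, 0.901 and 0.360 FPKM in WT mice, with no overlap. The WT values came from 10, 24 and 10 fragments. The means were 15.5 ± 3.08 and 0.542 ± 0.311 FPKM (SD, n = 3 each), and the log2(FPKM + 1) difference was 3.43 (SE 0.22).

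Hspb6 (Hsp20), whose phosphorylated form accompanies smooth muscle relaxation, differed least among the 5 members seen in every mouse. It had 9.67, 9.69 and 7.25 FPKM in Gm31629-/- mice and 1.20, 0.870 and 1.43 FPKM in WT mice. The WT values came from 51, 36 and 62 fragments, and reads of genes that share its exon bases could be among them. Here the groups were separate but closer, with means of 8.87 ± 1.40 and 1.17 ± 0.284 FPKM (SD, n = 3 each) and a log2(FPKM + 1) difference of 2.18 (SE 0.17).

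Hspb2, which pairs with Hspb3 in muscle, was close to absent. Gm31629-/- mice had 0.652, 0.195 and 0 FPKM, which is 10, 3 and 0 fragments, and all 3 WT mice were at 0, where a count of 0 allows up to 3 fragments. The groups overlapped at 0. Its 13 fragments in Gm31629-/- mice were at least 4.33-fold higher than a floor of 3 fragments over the WT group, but 10 of them came from mouse 1, and without that mouse the group was at the floor and no fold can be given. Floors here cover counting error only. Its exon bases shared with the more abundant Cryab leave the origin of these fragments uncertain.

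In 5 of the 6 genes every Gm31629-/- mouse lay above every WT mouse, and these were also the 5 that passed the minimum. The minimum averages all 6 mice, so this match is partly built in. Hspb7 and Hspb8, with WT means of 0.151 and 0.462 FPKM, passed it only through Gm31629-/- mice. Across every listed gene 31% lay wholly higher in Gm31629-/- mice, and among genes past the minimum 36.3% lay wholly higher and 21.5% wholly lower. Since the genes were proposed from this contrast, nothing is read from the count. Without Gm31629-/- mouse 1, the log2(FPKM + 1) differences were 6.06 for Hspb1, 0.13 for Hspb2, 2.12 for Hspb6, 2.97 for Hspb7, 5.05 for Hspb8 and 3.45 for Cryab. Over all tested genes the median difference was 0.15 on the deposited scale and -0.05 after scaling by the median ratio. Of the members, only Hspb2 had a difference of a like size.

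**Figure D1:**
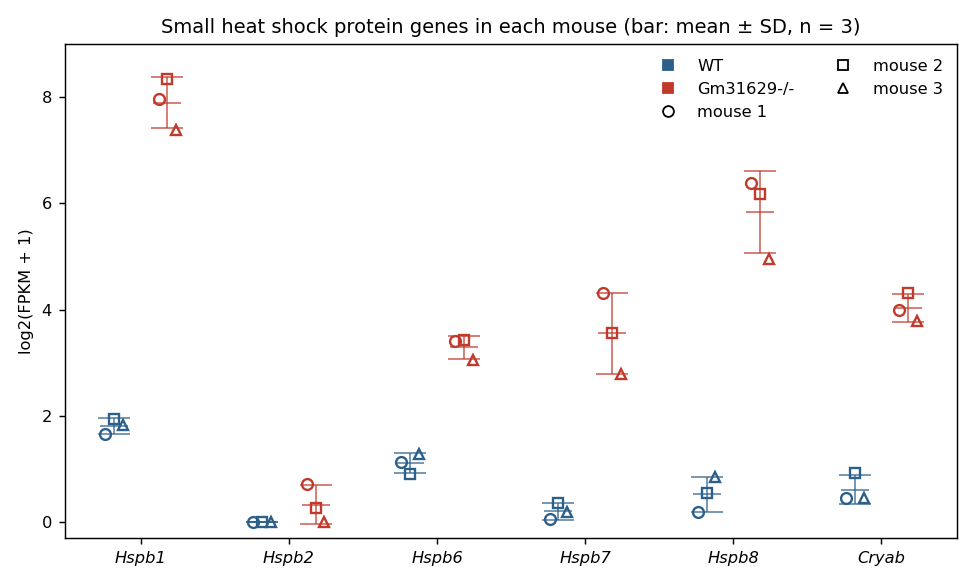
Level of each small heat shock protein gene in log2(FPKM + 1), with a symbol for each mouse, WT in blue and Gm31629-/- in red, and bars for the mean ± SD (n = 3). Hspb1 and Hspb8 lie highest in Gm31629-/- mice, at mean FPKM of 246 and 61.5, and only Hspb2 overlaps between the groups.

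The order of the levels, per length, was not the same in both genotypes. In Gm31629-/- mice the means ran from Hspb1 through Hspb8, Cryab, Hspb7 and Hspb6 to Hspb2. The neighbors Cryab and Hspb7, and Hspb7 and Hspb6, overlapped between mice. In WT mice the order was Hspb1, Hspb6, Cryab, Hspb8, Hspb7 and Hspb2, and the values of Hspb6 and Cryab, of Cryab and Hspb8, and of Hspb8 and Hspb7 overlapped. Hspb1 led in all 6 mice. It made up 66.2% to 74.7% of the summed FPKM of the 6 genes in Gm31629-/- mice and 48.2% to 55.2% in WT mice, while that sum was 222 to 435 FPKM and 3.89 to 5.36 FPKM, respectively. The share of Hspb6 went the other way, at 2.23% to 3.27% in Gm31629-/- mice and 16.2% to 30.8% in WT mice. Thus the family differed in composition as well as in amount, though the WT value of Hspb6 could include reads of genes that share its exon bases.

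Whether Hspb1 moved with the muscle members was first read from ratios of FPKM with no pseudocount, in which the depth of a library cancels. The ratio of Hspb1 to Hspb7 was 13.1, 30.3 and 28.1 in Gm31629-/- mice and 55.1, 10.2 and 18.8 in WT mice. These ranges overlapped, and the log2 difference was 0.03 (SE 0.81), an error wide enough to hide a sizeable change in either direction. The ratio to Hspb8 was 3.00, 4.53 and 5.52 against 15.5, 6.27 and 3.20, which also overlapped, with a log2 difference of -0.68 (SE 0.71). On this scale, chosen after the data were seen, the difference of Hspb1 could thus not be told from those of Hspb7 and Hspb8 within these errors. On the planned log2(FPKM + 1) scale the difference of Hspb1 exceeded that of Hspb7 by 2.74 (SE 0.35) and that of Hspb8 by 0.77 (SE 0.30). Neither overlapped there, but the pseudocount weighs on the low WT values.

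Against Hspb6 and Cryab the ratios were separate. Hspb1 was 25.7, 33.5 and 22.9 times Hspb6 in Gm31629-/- mice and 1.79, 3.28 and 1.76 times in WT mice, a log2 difference of 3.63 (SE 0.34). Hspb1 was 16.7, 17.2 and 12.9 times Cryab in Gm31629-/- mice and 5.88, 3.17 and 7.03 times in WT mice, a log2 difference of 1.61 (SE 0.37). The excess over these members was thus present in every Gm31629-/- mouse. For Hspb6 the limit of its shared exon bases holds here too. On the log2(FPKM + 1) scale, Hspb1 minus the mean of the other 5 members was 4.20, 4.80 and 4.47 in Gm31629-/- mice and 1.29, 1.40 and 1.27 in WT mice. That difference of 3.17 (SE 0.18) was 1.14 with no pseudocount over the 4 others above 0 in every library. These values differ in the pseudocount, which holds down the differences of the low members. They also differ in the gene set, since the latter leaves out Hspb2, whose difference was 0.33.

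The smooth muscle markers gave a second yardstick. All 15 were higher in every Gm31629-/- mouse than in any WT mouse, their summed FPKM was 1734 to 2792 against 77.4 to 115, and their most abundant gene Acta2, smooth muscle actin, had 557 ± 95.5 against 8.25 ± 5.18 FPKM (SD, n = 3 each). The ratio of Hspb1 to Acta2 was 0.387, 0.560 and 0.365 in Gm31629-/- mice and 0.429, 0.201 and 0.458 in WT mice. These ranges overlapped, with a log2 difference of 0.34 (SE 0.43). The ratio to Des, the desmin of muscle intermediate filaments, was 1.15, 2.46 and 1.21 against 5.33, 1.43 and 2.62 and overlapped as well. In all, the ratio overlapped for 8 of the 14 smooth muscle markers above 0 in every library, namely Acta2, Actg2, Myh11, Cnn1, Des, Lmod1, Myl9 and Cald1. For comparison, it overlapped for 1.97% of 13976 tested genes above 0 in every library. Overlap depends on the spread between mice as well as on how closely the sizes match. Over these 8 markers the log2 difference of the ratio ran from -1.69 (SE 1.03) for Cnn1 to 0.42 (SE 0.40) for Cald1. It was -1.38 (SE 0.68) for Myh11 and -1.09 (SE 1.35) for Lmod1. Hspb1 ranked 9 among 14657 genes by its difference, so its ratio was bound to separate the groups for most genes. Both Hspb1 and the marker list were chosen with results of this contrast known. The overlaps are therefore a description and not a test.

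For the other 6 smooth muscle markers the ratio was separate. It was higher in Gm31629-/- mice for Tagln, Smtn, Mylk, Tpm1 and Tpm2 and lower for Synm. For Tpm1, a tropomyosin that non-muscle cells also make, Hspb1 was 1.57 to 2.88 times its level in Gm31629-/- mice and 0.0441 to 0.0532 times in WT mice. Tagln shares 67.9% of its exon bases with Pcsk7 and Gm48529, so its value is uncertain.

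**Figure D2:**
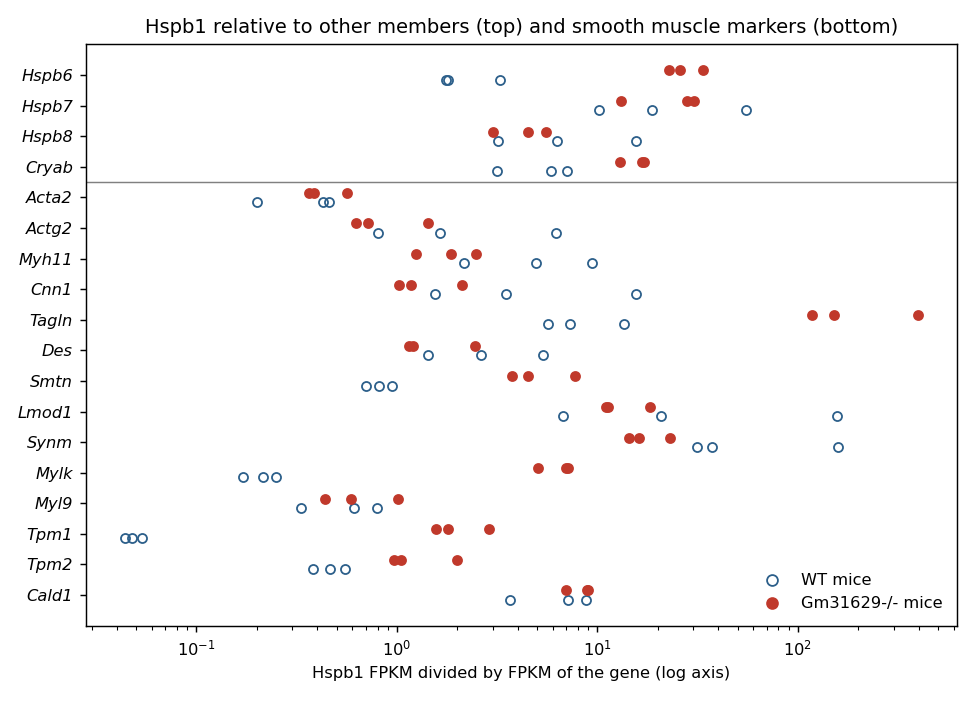
FPKM of Hspb1 divided by that of each other member above 0 in every library (upper rows) and of each smooth muscle marker (lower rows), on a log axis, with 1 point per mouse. The WT and Gm31629-/- points intermingle for Hspb7, Hspb8 and 8 of the 14 markers and are separate for Hspb6 and Cryab.

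Markers of other cell types moved with the genotype as well, and their part in the members' differences was not tested. Of the markers tested with limma, 12 of 13 for enteric neurons and glia were called higher (adjusted p under 0.05 and a log2(FPKM + 1) difference above 1, as for 18.4% of all tested genes), and their summed FPKM was 68.7 to 285 against 2.91 to 5.52, with Vip the most abundant and Elavl4 at 0 in all WT mice. For fibroblasts 8 of 8 were called higher (203 to 567 against 17.4 to 37.6, led by Col3a1), for endothelium 7 of 7 (86.6 to 262 against 8.02 to 18.4, led by Plvap), for neutrophils 6 of 6 (67.2 to 225 against 3.71 to 6.50, led by S100a9) and for macrophages 6 of 7 (333 to 726 against 68.2 to 78.8, led by C1qa). Adipocyte markers gave 3 of 5 (83.8 to 141 against 35.4 to 50.5, led by Pck1). Of 4 striated muscle markers past the minimum 1 was called higher, and their sum overlapped at 11.7 to 109 against 9.39 to 14.8 FPKM, with Acta1 the most abundant and Myh1, Myh2 and Myh6 at 0 in all WT mice. Colon epithelial markers, led by Krt8, summed to 9886 to 12565 FPKM in Gm31629-/- mice and 18583 to 20352 in WT mice, and 4 of 15 were called lower, against 4.64% of all tested genes.

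The ratio of Hspb1 to these other markers was taken in the same way, as a description. It overlapped for 2 of 7 enteric neuron and glia markers, 1 of 7 fibroblast markers, 2 of 5 adipocyte markers and 2 of 6 neutrophil markers. No overlap was seen for the 15 epithelial, 7 endothelial, 7 macrophage and 4 striated muscle markers above 0 in every library. Against Krt8, Hspb1 was at 0.0710 to 0.151 times its level in Gm31629-/- mice and at 0.000511 to 0.000659 times in WT mice. Hspb1 and the keratin thus differed between genotypes in opposite directions.

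The spread among the 3 Gm31629-/- mice gave another view, one that does not use the genotype contrast. Hspb7 and Hspb8 ran from mouse 1 down through mouse 2 to mouse 3, at 160%, 90.5% and 49.8% and at 135%, 117% and 48.8% of their group mean. The summed smooth muscle markers ran in the same order, at 129%, 91.5% and 79.9%, and so did the neutrophil markers, at 156%, 97.8% and 46.6%, and the striated muscle markers, at 199%, 79.0% and 21.5%. Hspb1, in contrast, was highest in mouse 2, at 132%, with 101% in mouse 1 and 67.3% in mouse 3. Cryab (95.7%, 122% and 82.6%) and Hspb6 (109.0%, 109.3% and 81.7%) were also highest in mouse 2, although mice 1 and 2 hardly differed for Hspb6. The enteric neuron and glia markers had this order too, at 97.8%, 163% and 39.3%. All 5 members were lowest in mouse 3, where the epithelial markers were highest, at 117%. With 3 mice these orders are few points, and they are given as a description.

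**Figure D3:**
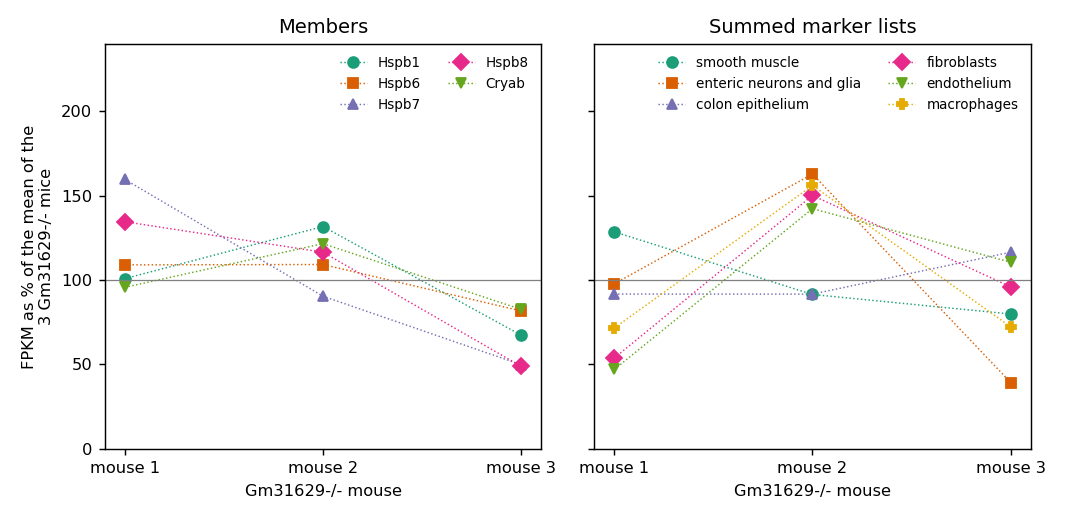
FPKM of 5 members (left) and of 6 summed marker lists (right) in each Gm31629-/- mouse, as a percent of the mean of the 3 mice, with dotted lines that only link the points of an item. All 5 members are lowest in mouse 3, Hspb7, Hspb8 and smooth muscle markers are highest in mouse 1, and Hspb1 and Cryab are highest in mouse 2.

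In WT mice Hspb1 and Hspb7 had the order of the smooth muscle sum, mouse 2 over mouse 3 over mouse 1, which the sums for enteric neurons and glia, epithelium, fibroblasts, endothelium and neutrophils shared. Hspb8 was highest in mouse 3, Hspb6 in mouse 3 and Cryab in mouse 2. These orders rest on 2 to 62 fragments for each value.

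The genes most like each member were found by the root mean square (RMS) difference of log2(FPKM + 1) over the 6 libraries, each gene centred on its own mean, among the 7242 genes that averaged 5 FPKM or more. For Hspb1 these were Mgp, a matrix protein that restrains calcification (0.29), the smooth muscle myosin Myh11 (0.37) and Acta2 (0.41). Mgp had 147 ± 65.1 FPKM in Gm31629-/- mice and 1.03 ± 0.850 FPKM in WT mice (SD, n = 3 each). By the same measure Hspb1 was 0.49 from Hspb8, 1.34 from Cryab, 1.41 from Hspb7 and 1.97 from Hspb6. For Hspb8 the nearest were Prph, an intermediate filament of neurons (0.31), Rgs5, a regulator of G-protein signaling in pericytes (0.32) and Sparcl1 (0.44). For Hspb7 they were Fmo2 (0.14), Ogn (0.15) and Mrvi1, a target of cGMP-dependent kinase in smooth muscle (0.16). Cryab was nearest to Ms4a4d (0.07), the focal adhesion gene Tgfb1i1 (0.09) and Plekho1 (0.13), and it was 0.42 from Hspb7. Hspb6 was nearest to Ctxn1 (0.09), the lymphocyte GTPase Gimap4 (0.10) and Rac2, a GTPase of blood cells (0.11). Hspb2, close to 0 throughout, was nearest to Zcrb1 (0.07), Bcar3 (0.08) and Golga5 (0.08). The nearest genes thus differed from member to member, and this measure follows the size of the genotype difference closely, for instance 6.18 for Mgp against 6.09 for Hspb1.

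The remaining genes of the pathway were taken from lists of known partners and tested with limma over all 14657 genes, where 18.4% were called higher, 4.64% lower and 23.1% in either direction. Of the other genes listed with the small heat shock proteins, Hspb11 alone passed the minimum, at 3.05 ± 0.954 against 1.96 ± 0.402 FPKM (SD, n = 3 each). It was not called (limma adjusted p = 0.137, unadjusted p = 0.0792). None of the list was called, also at an unadjusted p under 0.05, but with 1 gene tested nothing is read from this about the family. Hspb9 and Cryaa lay below the minimum, with means of 0.574 and 0.0917 FPKM in Gm31629-/- mice.

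Among 24 tested heat shock factors and inducible chaperones, 6 were called higher and 1 lower, with a median log2 difference of 0.18 beside 0.15 for all tested genes. Hsf1, the factor that switches these genes on, had 13.8 ± 3.12 against 15.5 ± 3.38 FPKM (SD, n = 3 each; limma adjusted p = 0.574). The largest difference was in Serpinh1, the collagen chaperone Hsp47, at 26.7, 188 and 150.3 FPKM in Gm31629-/- mice and 5.80, 8.34 and 5.42 FPKM in WT mice (log2 difference 3.64, SE 0.68, limma adjusted p = 0.00555). Hsp90aa1, an inducible Hsp90, rose by 1.78 and Cacybp, a calcyclin-binding protein, by 1.32 (limma adjusted p = 0.0143 and 0.0152), and both calls were lost without WT mouse 3 (0.0608 and 0.0637), which left 4 of the 7 calls. Hspa1a, the stress-induced Hsp70, had 2.27, 9.35 and 4.92 FPKM against 2.17, 1.05 and 1.02 FPKM, and its call (1.31, limma adjusted p = 0.0386) was lost in 5 of 6 fits without 1 mouse, when every listed gene was tested (0.0781) and with the median ratio (0.0579). Its near copy Hspa1b was not called (0.81, limma adjusted p = 0.214), except without Gm31629-/- mouse 1 (0.0147). Reads of these near-identical copies could be split between them. Fkbp4, an Hsp90 cochaperone of steroid receptors, fell by 1.68, from 120.4 ± 35.2 to 37.7 ± 13.7 FPKM (SD, n = 3 each; limma adjusted p = 0.00802). The remaining calls, named after their values were seen, were Dnajb4 and Hsf4, which rose by 1.27 and 1.20.

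Chaperone-assisted selective autophagy is the route by which Hspb8, Bag3 and the ubiquitin ligase Stub1 clear damaged filamin. Of its 13 tested genes 4 were called higher and none lower, with a median log2 difference of 0.53. The called genes were the filamins Flna (136 ± 32.0 against 4.14 ± 0.741 FPKM, SD, n = 3 each; log2 difference 4.72, limma adjusted p = 9.09e-05) and Flnc (2.84, limma adjusted p = 0.000218), the Bag3 adaptor Synpo2 (2.78, limma adjusted p = 0.000578) and Map1lc3a (1.26, limma adjusted p = 0.000632). Flna and Flnc are the clients of the route and Synpo2 is a muscle protein of the Z-disk and dense bodies. Bag3 itself had 37.2, 58.6 and 39.6 FPKM in Gm31629-/- mice and 35.0, 29.9 and 39.0 FPKM in WT mice, which overlapped (0.35, limma adjusted p = 0.202). Stub1 was not called either (-0.29, limma adjusted p = 0.139). The groups were thus separate for Hspb8, while its partner Bag3 had 45.2 ± 11.7 against 34.6 ± 4.53 FPKM (SD, n = 3 each).

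Of 12 tested kinases that phosphorylate small heat shock proteins, or lie upstream of those that do, 6 were called higher and none lower, with a median log2 difference of 0.69. Dmpk, the myotonic dystrophy kinase that binds Hspb2, had 36.0, 38.7 and 27.7 FPKM in Gm31629-/- mice and 0.649, 1.21 and 1.57 FPKM in WT mice (log2 difference 4.05, SE 0.22, limma adjusted p = 0.000113). The p38 kinases Mapk12 and Mapk11 rose by 1.98 and 1.34 (limma adjusted p = 0.000799 and 0.00897). Prkacb, a catalytic subunit of the cAMP-dependent kinase that phosphorylates Hspb6, rose by 1.45 (limma adjusted p = 0.00277). Other kinases, named after their values were seen, were not called. The more abundant p38 kinase Mapk14 had 28.1 against 27.7 FPKM. Mapk13 (218 against 309 FPKM), Prkaca (25.4 against 31.8) and Mapkapk3 (9.74 against 15.5) were lower in every Gm31629-/- mouse than in any WT mouse. Prkd3 and Prkd1, named after their values were seen, rose by 1.14 and 1.01, and the call of Prkd1 was lost without Gm31629-/- mouse 2 or WT mouse 3. Both of these calls were lost with the median ratio (log2 differences of 0.996 and 0.922), which left 4 of the 6. Mapkapk2, the main kinase of Hspb1, was not called, at 45.8 ± 11.9 against 37.8 ± 1.57 FPKM (SD, n = 3 each; limma adjusted p = 0.340). Prkg1, the cGMP-dependent kinase of smooth muscle, lay below the minimum, at 0.383, 0.236 and 0.112 FPKM against 0 in all WT mice.

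Of 11 tested filament and actin genes whose products small heat shock proteins bind, 5 were called higher and 2 lower, with a median log2 difference of 0.14. Des had 161 ± 46.8 FPKM in Gm31629-/- mice and 1.12 ± 0.809 FPKM in WT mice (SD, n = 3 each; log2 difference 6.29, SE 0.31, limma adjusted p = 0.000111). Synm, which joins desmin filaments, rose by 3.78, the glial filament Gfap by 3.32 and Vim, the mesenchymal vimentin, by 3.02 (limma adjusted p = 0.000113, 0.000978 and 0.000554). Nes rose by 1.13 (limma adjusted p = 0.0455), a call lost in 5 of 6 fits without 1 mouse and when every listed gene was tested (0.0878). The epithelial keratins went the other way. Krt8 fell by 1.05 and Krt19 by 1.00 (limma adjusted p = 0.00777 and 0.00698), and neither was called without Gm31629-/- mouse 1, nor Krt19 without WT mouse 2. The call of Krt8 was also lost when every listed gene was tested (limma adjusted p = 0.0891), and that of Krt19 on the TPM scale (-0.992).

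**Figure D4:**
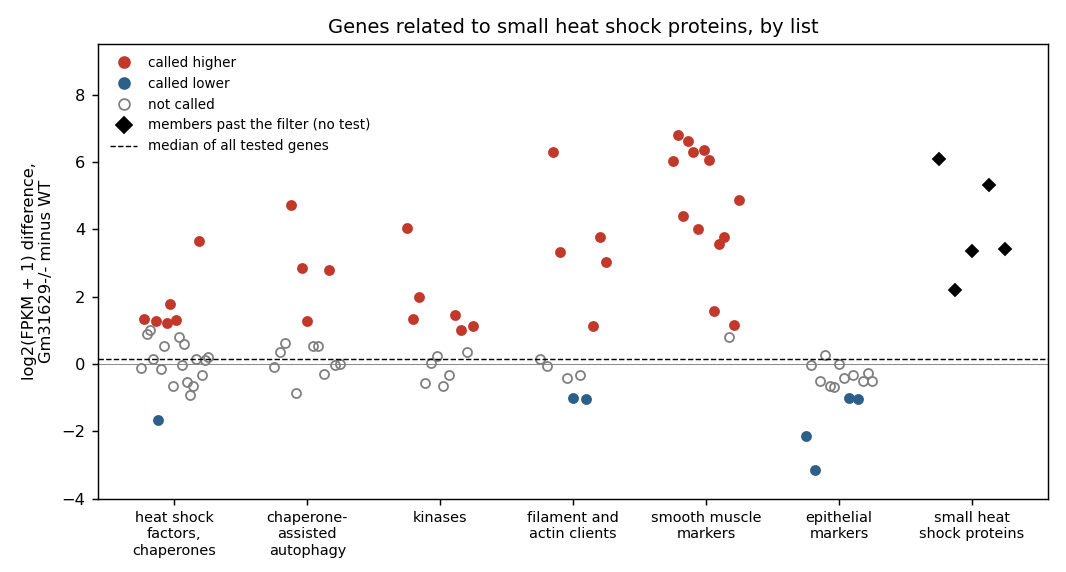
Differences between genotypes on the log2(FPKM + 1) scale (Gm31629-/- minus WT) for each tested gene of 4 pathway lists and 2 marker lists, with filled points for genes called with limma, and for the 5 members past the minimum mean FPKM (diamonds, not tested). Smooth muscle markers and members lie mostly well above the dashed median of all tested genes at 0.15, whereas heat shock factors and chaperones lie on both sides of it, with a median of 0.18.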

How the data were processed

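RNA-Seq libraries of colon tissue from 3 Gm31629-/- and 3 WT mice, grouped by the genotype in their labels, were analysed. The authors deposited 1 table of FPKM values for 27546 genes, 1 column per mouse, and no other sample columns were present. The submitters' processing notes name HISAT2 2.1.0, HTSeq 0.6.0 and GRCm38. The methods speak of RNA pooled from 3 mice per genotype, whereas the table has a value per mouse. The columns were treated as separate mice, and p-values measure the spread between these libraries. Replicates differed by more than counting noise (mean chi-square per gene 29.1 to 131).

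Symbols, positions and exon lengths came from GENCODE M21 and matched 27488 identifiers. Fragments were recovered from the FPKM steps, and 96.3% to 97.2% of the values of 20 fragments or fewer came out whole (tolerance 0.1). The 14657 genes averaging 0.5 FPKM or more were compared with limma 3.58.1 in R 4.3.3 (eBayes with a trend) on log2(FPKM + 1), which understates the difference of low genes, in place of the DEGseq count test of the study. That average was taken over both groups, so a gene could pass through Gm31629-/- mice alone. Synpo2, Flnc, Prkd1, Gfap and Synm, with WT means of 0.0345 to 0.126 FPKM, were among those that did. A call needed an adjusted p (Benjamini-Hochberg) under 0.05 together with a log2 difference above 1 or below -1. The script was tested on simulated data. An exact permutation test of 3 against 3 mice cannot go below p = 0.10, so none was run.

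The members and gene lists were chosen with earlier results of these data known. Named are the members, up to 4 called genes per pathway list and direction (by size), Bag3, Stub1, Synpo2, Des, Hsf1, Hspa1a, Hspa1b, Mapkapk2, Prkg1 and Dmpk, the most abundant gene of each marker list and the 3 genes nearest to each member. Alternatives were testing every gene, a minimum mean of 5 FPKM, a pseudocount of 0.1, the TPM scale, the median ratio, eBayes without a trend, a replicate block and leaving out each mouse. Promoter sequences came from RefSeq (GRCm38.p6). Figures were drawn with matplotlib 3.10.9.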

Additional observations from a re-analysis of the deposited data

How the results depend on the processing

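The calls over all genes numbered 3384 and stayed within 1.5 times that count under every alternative except a mean FPKM of at least 5, which left 1449. That minimum, which tests 7242 genes, left 4 of 7 calls among heat shock factors and chaperones, 2 of 4 in chaperone-assisted autophagy and 2 of 6 among kinases. Genes tested in these lists fell from 24 to 18, from 13 to 11 and from 12 to 8. The calls not kept were all of genes no longer tested. The share of calls that were higher was 79.9%, and it was 64.7% with the median ratio (2233 higher, 1217 lower). Leaving out each mouse gave 2798 to 3572 calls over all genes, 4 to 10 among heat shock factors and chaperones (4 without WT mouse 3), 4 to 5 in chaperone-assisted autophagy, 5 to 6 among kinases, 5 to 6 among filament and actin genes and 13 among smooth muscle markers. The median of the 6 members' differences, 3.39, was 5.11 with a pseudocount of 0.1, 4.35 on the TPM scale, 6.54 with no pseudocount (over 5 members, without Hspb2) and 3.21 to 3.64 without each mouse. Hspb1 minus the mean of the other members, 3.17, was 2.24 with a pseudocount of 0.1 and 2.74 on the TPM scale. It was 1.14 with no pseudocount (also without Hspb2) and 3.01 to 3.31 without each mouse. The settings with no pseudocount were chosen after the data were seen. No member and no called gene among those named changed sign. Among named genes that were not called, Hsf1 went from -0.16 to 0.0017 without WT mouse 3 and Mapkapk2 from 0.24 to -0.01 with the median ratio, and with the latter the median over all genes went from 0.15 to -0.05. The replicate block gave 3357 calls and lost that of Hspa1a among the named genes, but same-numbered mice did not deviate together (correlations 0.036, -0.11 and 0.014), so the numbers do not pair the mice. The WT levels of Hspb7, Hspb8 and Cryab rest on 2 to 29 fragments, which limits their ratios.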
